A study of Callithrix jacchus with 3 samples.

Results

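The miRNAs miR-15a-5p, miR-20a-5p and miR-92a-3p, which differ in seed, were followed through the small RNA of the adult common marmoset (Callithrix jacchus) testis. Their reads were chosen by sequence alone, as those whose first 18 nt equal the first 18 nt of the human mature miRNA. They are 3 of 61 miRNAs looked for in the same way. The data were 2 small RNA libraries and 1 RNA-seq table from wild type testis: RNA recovered by immunoprecipitation of MARWI, a PIWI protein of marmoset germ cells (MARWI-IP, labelled as 2 replicates from animals of 41 and 51 months), total small RNA of an animal of 41 months, and RNA-seq (also 2 labelled replicates of 41 and 51 months). Each was deposited as 1 column of values, so the spread between animals is unknown and libraries could not be tested against each other. MARWI-IP held 110209593 reads, all of 24 to 33 nt, so that mature miRNAs of 22 or 23 nt are outside its range. Total small RNA held 14138166 reads of 20 to 51 nt, 12792323 of them of 24 to 33 nt. The series had no control immunoprecipitation, and background of the MARWI-IP was not measured.

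miRNAs are cut from hairpin precursors by Drosha and then Dicer, and guide Argonaute proteins to messenger RNAs that pair with the seed, bases 2 to 8. PIWI proteins of the testis instead carry piRNAs, which are longer and are made without Dicer. miR-20a and miR-92a come from the miR-17-92 cluster, known for promoting proliferation. miR-15a comes from a cluster with miR-16 that is known in human cells for restraining cyclins and BCL2. Which hairpin each marmoset read came from was not analysed here, since no miRNA precursor or genome sequence was used.

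The mature forms are shown first, because every longer form below starts with them. They are written as deposited, as DNA letters with T for U, and capitals mark the seed.
miR-15a-5p of 22 nt: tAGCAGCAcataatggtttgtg
miR-20a-5p of 23 nt: tAAAGTGCttatagtgcaggtag
miR-92a-3p of 22 nt: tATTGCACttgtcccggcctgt

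The longer forms that separate the members are shown next, with capitals for the seed and for every base past the mature 3′ end.
miR-15a-5p of 24 nt: tAGCAGCAcataatggtttgtgGA
miR-15a-5p of 29 nt: tAGCAGCAcataatggtttgtgGATTTTG
miR-15a-5p of 30 nt: tAGCAGCAcataatggtttgtgGATTTTGA
miR-20a-5p of 24 nt: tAAAGTGCttatagtgcaggtagT
miR-20a-5p of 31 nt: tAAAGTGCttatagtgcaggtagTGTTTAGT
miR-92a-3p of 23 nt, first continuation: tATTGCACttgtcccggcctgtT
miR-92a-3p of 23 nt, second continuation: tATTGCACttgtcccggcctgtG

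In total small RNA, miR-20a-5p and miR-92a-3p were abundant and miR-15a-5p was rare. miR-20a-5p had 16157 reads, 0.114% of the library (0.113% to 0.116%), and was the 8th of the 61 miRNAs by reads. miR-92a-3p had 10475 reads, 0.0741% of the library (0.0727% to 0.0755%), and was the 14th. miR-15a-5p had 248 reads, 0.00175% of the library (0.00154% to 0.00199%), and was the 50th. Ranges in parentheses are 95% intervals (exact, Clopper-Pearson). They reflect the error of counting alone, as reads were counted without molecular identifiers. By reads, miR-20a-5p stood 1.54 times as high as miR-92a-3p (1.50 to 1.58) and 65.1 times as high as miR-15a-5p (57.5 to 74.2). How efficiently each miRNA was cloned was not measured, so these are ratios of reads.

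The length of the reads set miR-15a-5p apart from the other two members. Of miR-20a-5p reads in total small RNA, 14077 (87.1%, 86.6% to 87.6%) had the mature length, 754 (4.67%) were shorter and 1326 (8.21%, 7.79% to 8.64%) ran past the mature end. Of miR-92a-3p reads, 8706 (83.1%, 82.4% to 83.8%) had the mature length, 684 (6.53%) were shorter and 1085 (10.4%, 9.78% to 10.96%) ran past it. Both thus had 1 dominant form with a fringe of neighbours.

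miR-15a-5p had no dominant mature form. Only 35 of its 248 reads (14.1%, 10.03% to 19.1%) had the mature length, 49 (19.8%) were shorter and 164 (66.1%, 59.9% to 72.0%) ran past the mature end. Its reads fell into a group of 20 to 24 nt, with 141 reads, and a group of 27 to 32 nt, with 106 reads, which were 42.7% of the total (36.5% to 49.2%). A single read of 25 nt and none of 26 nt lay between them. Within the short group, 13 reads had 20 nt, 36 had 21 nt, 35 had 22 nt, 15 had 23 nt and 42 had 24 nt. The form of 24 nt, with 2 bases past the mature end, was thus the commonest of the short group. In the long group, 44 reads of 29 nt and 50 reads of 30 nt made up most, and these were also the commonest lengths of the library, at 27.5% and 26.7% of its reads of 24 to 33 nt.

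**Figure D1:**
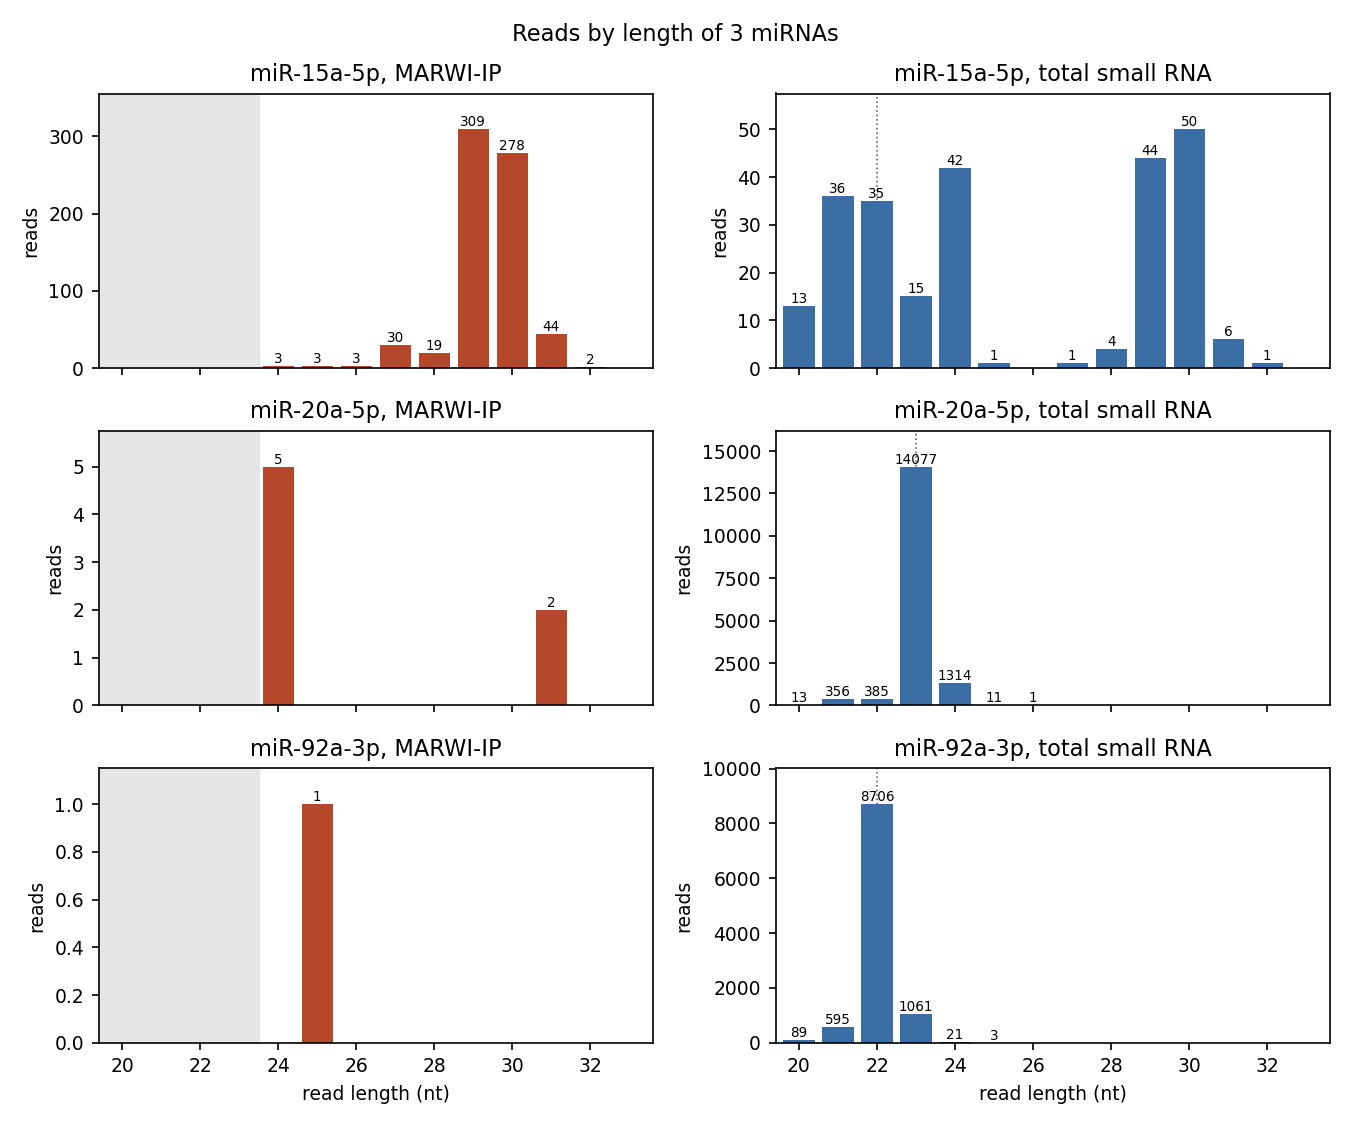
Reads by read length (nt) of miR-15a-5p, miR-20a-5p and miR-92a-3p in MARWI-IP (left) and total small RNA (right), each panel with its own scale of reads from 0; the dotted line marks the mature length and grey the lengths that the MARWI-IP table does not list. In total small RNA miR-15a-5p has a group at 20 to 24 nt and another around 29 and 30 nt, whereas miR-20a-5p peaks at 23 nt with 14077 reads and miR-92a-3p at 22 nt with 8706 reads.

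At the 3′ end, the forms of each member were ladders of trimmed or extended versions of its mature form. All 12 sequences of miR-15a-5p in total small RNA, and all 9 in MARWI-IP, were trimmed or extended versions of 1 and the same sequence, with no more than 1 sequence at each length. The same held for all 7 sequences of miR-20a-5p in total small RNA and both in MARWI-IP, although no miR-20a-5p form of 27 to 30 nt was listed in either library. No other added base was listed for either miRNA. Which reads were removed before deposit is not given in the sources used here.

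For miR-20a-5p, 1 added T accounted for 1314 of the 1326 reads past the mature end. Forms with 2 and 3 added bases had 11 and 1 reads. No miR-20a-5p read of total small RNA was longer than 26 nt, and the exact interval of that share reaches 0.0228% of its 16157 reads.

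miR-92a-3p was the exception to a single ladder, as 2 different continuations followed its mature end. Of 1085 reads past the end in total small RNA, 975 (89.9%, 87.9% to 91.6%) continued with T and 110 (10.1%, 8.41% to 12.1%) with G. With T, 954 reads had 1 added base, 18 had 2 and 3 had 3. With G, 107 reads had 1 added base and 3 had 2. In human cells miR-92a-3p is made from more than one hairpin, but no hairpin sequence was used here to assign either continuation. The 8706 reads of the mature form are the same whichever continuation they were cut from.

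The next question was how these miRNAs appeared among RNA recovered with MARWI, in the 24 to 33 nt that both tables hold. There, miR-15a-5p had 691 MARWI-IP reads and 149 total reads. miR-20a-5p had 7 MARWI-IP reads and 1326 total reads. miR-92a-3p had 1 MARWI-IP read and 24 total reads. miR-15a-5p, with the fewest total reads of the 3 over all lengths, thus had the most reads in MARWI-IP. Within 24 to 33 nt, miR-92a-3p had the fewest total reads.

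Set against the reads of 24 to 33 nt in each library, all 3 members had a lower share in MARWI-IP. miR-15a-5p made up 0.000627% of MARWI-IP (0.000581% to 0.000676%), against 0.00116% of total small RNA (0.000985% to 0.00137%), a ratio of 0.538 (0.450 to 0.647). miR-20a-5p made up 6.35e-06% of MARWI-IP, against 0.0104% of total small RNA, a ratio of 0.000613 (0.000246 to 0.00127), or 1632-fold lower. miR-92a-3p made up 9.07e-07% of MARWI-IP, against 0.000188% of total small RNA, a ratio of 0.00484 (0.000118 to 0.0297), which rests on 1 MARWI-IP read. Over 24 to 33 nt the interval of miR-15a-5p does not overlap those of the other members. At 24 nt alone that of miR-92a-3p, 0 to 0.0305, overlapped that of miR-15a-5p, 0.00225 to 0.0355. The interval of miR-20a-5p at 24 nt, 0.000196 to 0.00141, did not.

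Of the 61 miRNAs, 20 had 100 or more total reads of 24 to 33 nt, and 18 of these (90.0%) had a MARWI-IP share under 0.1 times their total share. miR-20a-5p was among the 18 and 18th of the 20 by ratio. miR-15a-5p was not, and its ratio was the second after that of miR-449a, at 0.599 (0.534 to 0.674), whose interval overlaps that of miR-15a-5p. The third was miR-16-5p, at 0.0855 (0.0633 to 0.115). miR-92a-3p, with 24 total reads, was not among the 20. A minimum of total reads favours low ratios, as total reads are the denominator. Without that minimum, 45 miRNAs had a ratio, and 35 of them (77.8%) were under 0.1, miR-20a-5p and miR-92a-3p among them. Those below the minimum of 100 total reads and above a ratio of 0.1 include miR-26a-5p, at 0.175 (0.122 to 0.253), and let-7g-5p, at 0.929 (0.218 to 8.32) from 16 MARWI-IP reads and 2 total reads, so miR-15a-5p and miR-449a were not alone above it. These 2 examples were chosen after their values were seen.

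**Figure D2:**
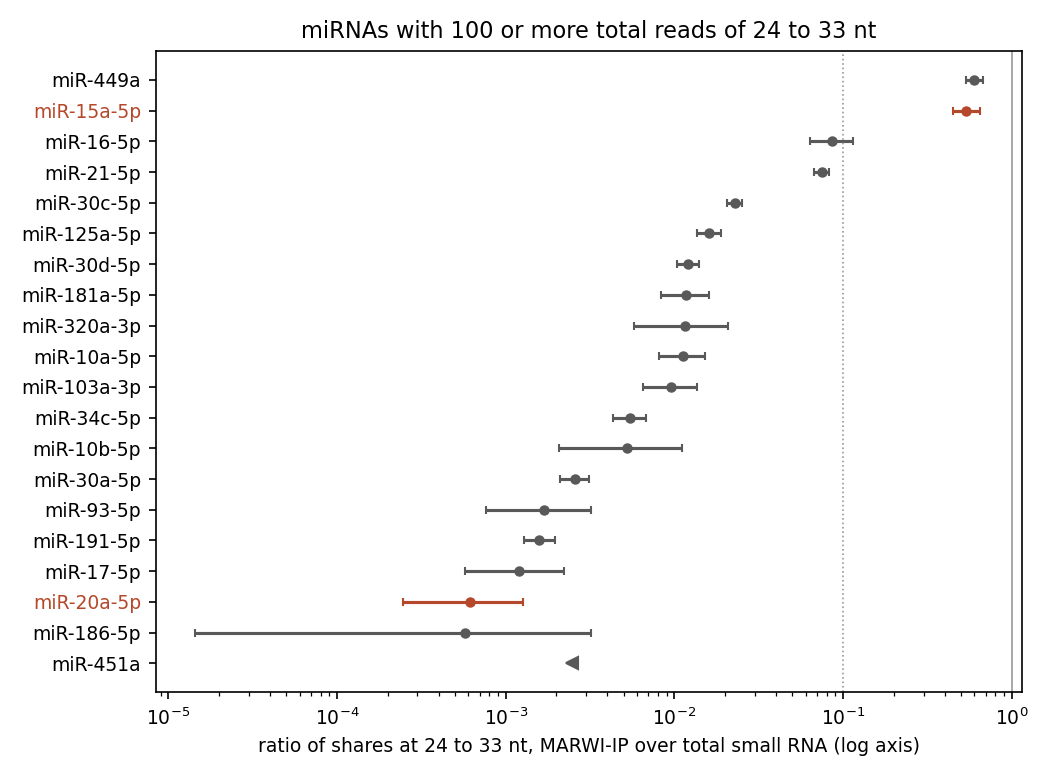
Ratio of shares at 24 to 33 nt, MARWI-IP over total small RNA, on a log axis for the 20 listed miRNAs that reach 100 total reads there; points are ratios, bars exact 95% intervals, red marks members, the arrowhead is the upper bound of a miRNA with no MARWI-IP read, and lines mark 1 and, dotted, 0.1. miR-15a-5p, at 0.538, and miR-449a, at 0.599, stand above 0.1 and miR-20a-5p, at 0.000613, near the low end.

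The ratio of miR-15a-5p depended on read length. At 24 nt it had 3 MARWI-IP reads and 42 total reads, a ratio of 0.0113 (0.00225 to 0.0355). At 29 nt it had 309 MARWI-IP reads and 44 total reads, a ratio of 0.666 (0.484 to 0.935). At 30 nt it had 278 MARWI-IP reads and 50 total reads, a ratio of 0.536 (0.395 to 0.739). The interval at 24 nt lies below those at 29 and 30 nt, so the 24-nt form had a lower MARWI-IP share, relative to its total share, than the forms of 29 and 30 nt.

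Over 27 to 33 nt, miR-15a-5p had 682 MARWI-IP reads and 106 total reads, a ratio of 0.732 (0.596 to 0.907). Reads of this range were 98.7% (97.5% to 99.4%) of its 24 to 33 nt reads in MARWI-IP and 71.1% (63.2% to 78.3%) in total small RNA. In MARWI-IP, 44.7% of miR-15a-5p reads were of 29 nt and 40.2% of 30 nt, against 33.7% and 32.1% of all MARWI-IP reads. Another 30 reads were of 27 nt, 19 of 28 nt, 44 of 31 nt and 2 of 32 nt, while 24, 25 and 26 nt had 3 reads each. MARWI-IP thus had 1 peak, at the same lengths as the long group of total small RNA. Of the short group, its table can list the 24-nt form alone.

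The ratio also rose with length in the sum of the other 58 listed miRNAs, to which different miRNAs contribute at different lengths. They had 666 MARWI-IP reads and 22644 total reads of 24 nt, a ratio of 0.00467 (0.00432 to 0.00504). Over 27 to 33 nt they had 3245 MARWI-IP reads and 529 total reads, a ratio of 0.698 (0.637 to 0.767), whose interval overlaps that of miR-15a-5p. At 29 nt their ratio was 0.928 (0.745 to 1.17) and at 30 nt 0.557 (0.467 to 0.668), again overlapping those of miR-15a-5p. At 24 nt alone the intervals overlapped as well, that of miR-15a-5p being 0.00225 to 0.0355. At 25 nt alone they also overlapped, at 0.428 (0.0344 to 22.5) for miR-15a-5p and 0.0287 (0.0236 to 0.0346) for the other 58. Over the whole 24 to 33 nt the intervals did not overlap, as the other 58 had a ratio of 0.0200 (0.0193 to 0.0206). That of miR-15a-5p was 0.538 (0.450 to 0.647). Nor did they overlap at 25 to 33 nt, with 0.743 (0.605 to 0.920) for miR-15a-5p and 0.292 (0.275 to 0.311) for the other 58. The same held in the windows of 24 to 26 and 25 to 26 nt. These last 3 windows were chosen after the data were seen. At 24 to 26 nt miR-15a-5p had 9 MARWI-IP reads and 43 total reads, a ratio of 0.0319 (0.0137 to 0.0663). The other 58 had 887 MARWI-IP reads and 23485 total reads there, a ratio of 0.00575 (0.00537 to 0.00615). Of these, 25 to 26 nt held 6 MARWI-IP reads and 1 total read of miR-15a-5p, a ratio of 0.904 (0.110 to 41.6), against 0.0396 (0.0340 to 0.0460) for the other 58. They also differed in how much of their total RNA was long: 71.1% of miR-15a-5p reads of 24 to 33 nt were 27 nt or longer, against 2.20% (2.02% to 2.40%) of those of the other 58. Their summed reads of 27 to 33 nt come from few miRNAs, with 1724 of the 3245 MARWI-IP reads and 307 of the 529 total reads from miR-449a alone. Over 24 to 33 nt, miR-449a had 347 of their 24014 total reads. How far the rise of the summed ratio reflects this change of miRNAs between lengths was not tested.

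**Figure D3:**
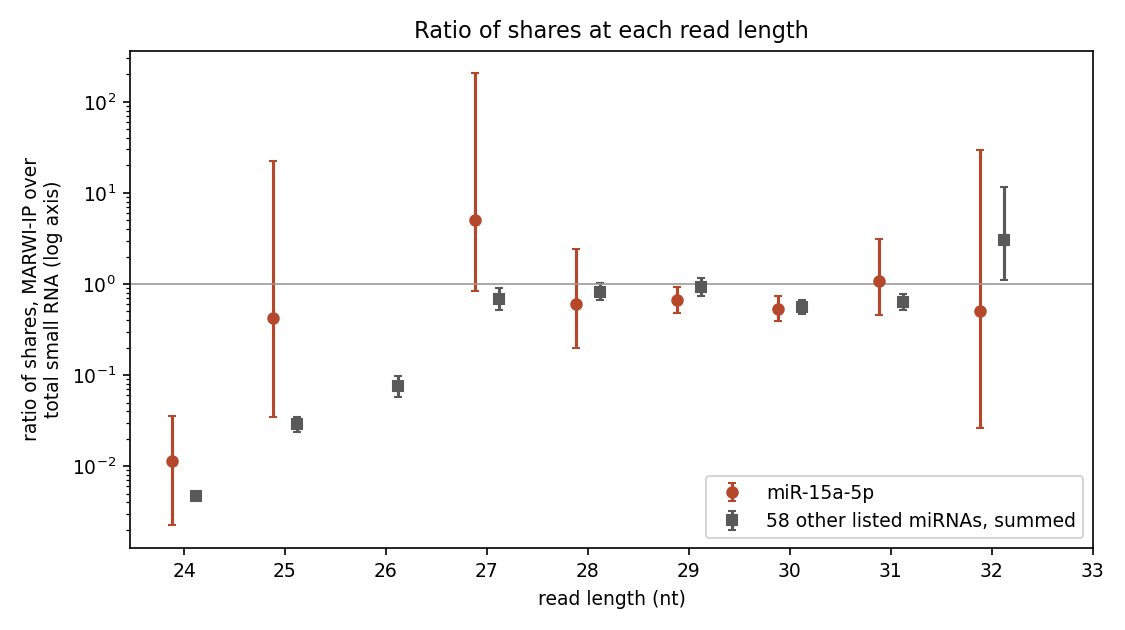
Ratio of shares at each read length (nt), MARWI-IP over total small RNA, on a log axis for miR-15a-5p (circles) and the sum of the 58 other listed miRNAs (squares), with exact 95% intervals; lengths without total reads have no point. Each share is of the reads of that length in its library. The ratio is 0.0113 and 0.00467 at 24 nt and lies near or below 1 for both at 28 to 31 nt.

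Among the 20 miRNAs with 100 or more total reads of 24 to 33 nt, miR-15a-5p was second in the percentage that were 27 nt or longer. miR-449a had 88.5% (84.6% to 91.6%), miR-16-5p 12.7% (7.14% to 20.4%) and miR-21-5p 4.84% (3.59% to 6.36%), and the other 16 had under 2%, with 0 of 1326 reads of miR-20a-5p. miR-15a-5p contributed 682 of the 3929 MARWI-IP reads of 27 to 33 nt of all listed miRNAs (17.4%, 16.2% to 18.6%) and 106 of the 635 total reads (16.7%, 13.9% to 19.8%). It did so with 248 of 459906 listed miRNA reads of total small RNA.

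The reads of miR-20a-5p and miR-92a-3p in MARWI-IP were few. Of 7 miR-20a-5p reads, 5 were the 24-nt form, at a ratio of 0.000604 (0.000196 to 0.00141) to its 1314 total reads. The other 2 were the 31-nt form shown above, a length at which total small RNA had 0 miR-20a-5p reads. The only miR-92a-3p read, of 25 nt, carried the continuation with T, and the 21 total reads of 24 nt had no counterpart in MARWI-IP.

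Further MARWI-IP reads lay downstream on the same sequence as the long miR-15a-5p forms. Beside the 691 reads that start at the mature first base, 12 reads started inside it, 11 of them more than 2 nt downstream, at 4 different positions and as 8 distinct sequences. The most frequent, with 4 reads, began at base 11 of the mature miRNA, and the furthest, with 1 read, at base 17, the last position searched. They are shown because they carry the sequence beyond the longest form.
Start at base 11, 28 nt, 4 reads: taatggtttgtggattttgaaaaggtgc
Start at base 13, 30 nt, 1 read: atggtttgtggattttgaaaaggtgcaggc
Start at base 17, 30 nt, 1 read: tttgtggattttgaaaaggtgcaggccata

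All 9 distinct downstream sequences could be joined with the long forms, without a conflicting base, into a run of 46 nt that reaches 24 nt past the mature end. Its last 9 nt equal the first 9 nt of human miR-15a-3p, the other arm of the miR-15a hairpin, which itself had 0 reads in either library. It is printed with the seed and the bases past the mature end in capitals.
Joined run: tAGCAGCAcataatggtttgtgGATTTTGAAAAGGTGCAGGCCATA

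In total small RNA, with fewer reads, no miR-15a-5p read was found that started away from the mature first base. In that library, miR-20a-5p had 5 reads that started 1 nt upstream and 4 that started 1 nt downstream, and miR-92a-3p had 81 that started 1 nt downstream. A start 1 nt off shifts the seed by 1 base. No read of either library contained the reverse complement of the first 18 nt of a member.

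The relatives of each member are miRNAs of its cluster, of paralogous clusters or of its seed. miR-20a-5p was the most abundant of its kind. In total small RNA it had 16157 reads, against 7075 of miR-17-5p, 4234 of miR-93-5p, 667 of miR-106b-5p, 129 of miR-20b-5p and 89 of miR-106a-5p, which share its seed. Other arms of the miR-17-92 cluster were lower, with 1099 reads of miR-19b-3p, 268 of miR-18a-5p and 151 of miR-19a-3p. miR-92a-3p, at 10475 reads, stood above miR-25-3p with 2136 and miR-92b-3p with 159, which share its seed. The 6 cluster miRNAs named so far thus ran from 151 to 16157 reads, the opposite arms of their hairpins left aside. Human cells cut them from 1 transcript, but miR-92a-3p is also made from another hairpin, whose reads were not told apart here.

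miR-15a-5p had the opposite place among its relatives. miR-16-5p had 3022 reads, 12.2 times as many (10.7 to 13.9), miR-15b-5p had 743, 2.996 times as many (2.59 to 3.47), and miR-497-5p had 537. miR-195-5p had 0 reads. The other arms of the same hairpins were rare, with 33 reads of miR-92a-1-5p, 16 of miR-20a-3p, 1 of miR-92a-2-5p and 0 of miR-15a-3p. For an arm at 0 the human sequence may differ from that of marmoset, in which case its reads were missed.

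**Figure D4:**
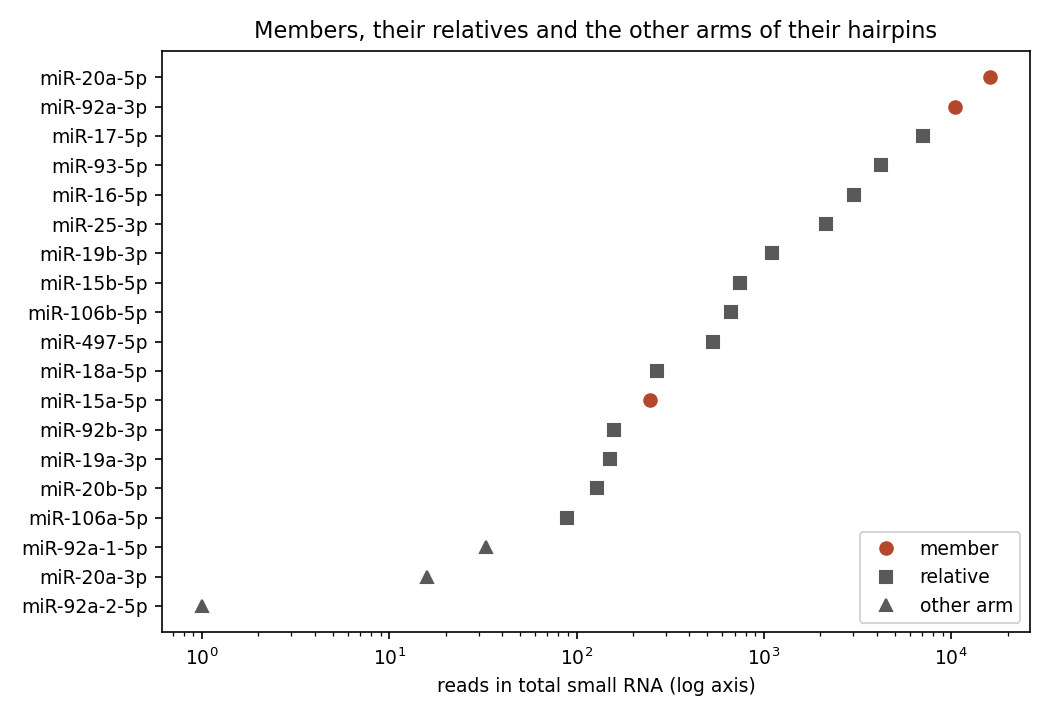
Reads in total small RNA (log axis) of the 3 members (circles), their relatives (squares) and the other arms of their hairpins (triangles), leaving out 2 with 0 reads. miR-20a-5p, at 16157, and miR-92a-3p, at 10475, head the list, and miR-15a-5p, at 248, lies below 9 relatives.

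Of the 4 listed seed relatives of miR-15a-5p, miR-15b-5p and miR-16-5p had long forms. miR-497-5p, with 537 total reads, had 0 reads of 27 to 33 nt in either library, and miR-195-5p had 0 reads of any length. miR-15b-5p had 37 MARWI-IP reads and 13 total reads of 24 to 33 nt, a ratio of 0.330 (0.172 to 0.677), all of them 28 nt or longer. Its commonest long form had 27 MARWI-IP and 11 total reads, and is shown for comparison with miR-15a-5p.
miR-15b-5p of 31 nt: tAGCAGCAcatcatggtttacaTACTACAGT

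miR-16-5p had 66 MARWI-IP reads and 14 total reads of 27 to 33 nt. Like miR-92a-3p it had 2 continuations. The one that goes on with TT had 53 MARWI-IP and 10 total reads of 27 to 33 nt, and the one that goes on with TA had 13 MARWI-IP and 4 total reads. The leading form of each is shown.
miR-16-5p of 30 nt, continuing with TT, 39 MARWI-IP and 10 total reads: tAGCAGCAcgtaaatattggcgTTAAGATT
miR-16-5p of 29 nt, continuing with TA, 5 MARWI-IP and 2 total reads: tAGCAGCAcgtaaatattggcgTAGTGAA

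Among the relatives of miR-20a-5p, miR-17-5p, the closest by reads, had 10 MARWI-IP reads and 967 total reads of 24 to 33 nt, a ratio of 0.00120 (0.000574 to 0.00222), whose interval overlaps that of miR-20a-5p. Of the 10 MARWI-IP reads 7 were 27 nt or longer, as were 0 of the 967 total reads. miR-106b-5p had 5 MARWI-IP reads and 15 total reads of 24 to 33 nt, a ratio of 0.0387 (0.0110 to 0.112). All 5 MARWI-IP reads and 10 of the 15 total reads (66.7%, 38.4% to 88.2%) were 27 nt or longer. miR-93-5p, with 9 MARWI-IP reads and 620 total reads, had a ratio of 0.00168 (0.000767 to 0.00322), with 0 MARWI-IP reads and 1 total read of 27 nt or longer. miR-18a-5p of the same cluster had 27 MARWI-IP reads and 33 total reads, a ratio of 0.0950 (0.0549 to 0.163), above that of miR-20a-5p, and 23 of its MARWI-IP reads and 14 of its total reads were 27 nt or longer. Neither miR-19b-3p nor miR-25-3p had a MARWI-IP read.

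The whole length profile was compared over total small RNA, as the summed absolute difference, halved, between the percentages of reads at each length relative to the mature end (0% for identical profiles, 100% for profiles without overlap). miR-20a-5p and miR-92a-3p were each other's nearest miRNA of those with 1000 or more reads, at 5.45%. miR-20a-5p was followed by miR-22-3p at 5.54% and miR-148a-3p at 6.61%, and miR-92a-3p by miR-17-5p at 6.45% and miR-148a-3p at 6.56%. The profile of miR-15a-5p was far from all 42 miRNAs with 1000 or more reads, the nearest being miR-30d-5p at 43.6%, miR-320a-3p at 52.8% and miR-30a-5p at 53.9%. These distances describe 1 library.

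RNA-seq gave the level of some partner genes in testis, in RPKM (reads scaled to transcript length and library size), from 1 column of values. Entries of the same gene were summed, except that those of SMC4 are given apart. The tissue label was checked against markers. The spermatid genes PRM1 at 7177 RPKM, TNP1 at 1678 RPKM and PRM2 at 1484 RPKM and the Leydig cell gene INSL3 at 404 RPKM were high. The spermatogonial genes ZBTB16 at 0.810 RPKM and KIT at 0.290 RPKM and the Sertoli cell gene AMH at 0.148 RPKM were low, and SYCP3, PIWIL1, SOX9 and CYP17A1 were looked up by symbol without a match.

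Of 12 listed genes known in human cells as targets of these miRNAs, 8 had an entry, and 7 of the 8 were at 1 RPKM or more, with a median of 2.40 RPKM. Over 11776 named protein-coding genes, 64.2% were at 1 RPKM or more and the median was 2.47 RPKM. The 8 genes lay between 0.703 RPKM for CCNE1, cyclin E1, and 3.65 RPKM for BCL2, an inhibitor of apoptosis. E2F3, a transcription factor of S-phase entry, was at 3.30 RPKM, summed from 2 entries at 2.02 and 1.27 RPKM. E2F1, of the same family, was at 1.45 RPKM. BCL2L11, which promotes apoptosis, was at 2.83 RPKM, summed from 2 entries at 2.00 and 0.822 RPKM. CCND2, cyclin D2, was at 3.25 RPKM, CHEK1, a checkpoint kinase, at 1.98 RPKM and CDKN1A, an inhibitor of cyclin-dependent kinases, at 1.66 RPKM. SMC4, the condensin gene whose intron holds miR-15b and miR-16-2 in human, had 2 entries, at 18.9 and 4.13 RPKM. The host transcripts MIR17HG and DLEU2 were looked up by symbol without a match. In whole testis, fewer cells of a type and less RNA per cell cannot be told apart.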

How the data were processed

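Small RNA tables of MARWI-IP and total small RNA and an RNA-seq table were used. Per the labels' protocols, RNA was isolated with a miRNeasy kit, from testis lysate after MARWI immunoprecipitation or from testis before gel sizing, and both small RNA libraries were made with NEBNext reagents. The deposited small RNA values are whole-number read counts per distinct sequence, without normalization or genome position. The MARWI-IP table lists 24 to 33 nt alone, so its sum is no measure of sequencing depth. RNA-seq values, per the file headers, are RPKM per transcript, as computed by the authors, with unknown depth. Tools in the submitters' processing notes are Bowtie, TopHat and Cufflinks, with no role stated. How reads were trimmed and mapped, and to which build, is not given in the sources used here.

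The first 18 nt of 61 human miRNAs were written from knowledge, as no miRNA table was at hand, and serve as match keys only, as do the mature lengths. let-7a and let-7c share a key and count as 1. All printed sequences are reads of the deposited tables or, for the joined run, built from them. The overlap with miR-15a-3p was read against its typed key. Reads that differ from human within the key were missed. Shares have exact (Clopper-Pearson) 95% intervals. For a ratio of shares, the exact interval was taken from the split of reads between both libraries. Shares at a single length or in a window are of the reads of the same lengths in that library. Starts within a member were matched by 16 nt of its listed forms. The counting was tested on simulated reads. Numbered LOC names in RNA-seq were given symbols from the RefSeq table (assembly calJac240_pri), which held 6593 of them and lacked 506. Entries of 1 symbol were summed. Members and lists were chosen with earlier results of these data known. Named were all 3 members, their leading forms, a fixed list of relatives, the 3 nearest length profiles and listed host, target and marker genes. A listed target gene is not reported here and was left out of the list's counts. miR-449a, miR-21-5p and the downstream reads were named after their values were seen. So were the windows of 27 to 33, 25 to 33, 24 to 26 and 25 to 26 nt and the single lengths. Software was Python 3.11.15, scipy 1.17.1, pandas 2.3.3 and matplotlib 3.10.9.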

Additional observations from a re-analysis of the deposited data

Results flagged for a closer look

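Reads that start away from the mature first base lie outside the matching rule and exceeded the 3 reads that a count of 0 allows. miR-15a-5p had 12 such reads in MARWI-IP, miR-20a-5p had 9 in total small RNA and miR-92a-3p had 81 in total small RNA. No control library measures how many such reads arise by error.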

How the results depend on the processing

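Of 45 alternatives to the 9 main values, 35 stayed within the 95% interval of the value reported, 10 lay outside it and none reversed a ratio about 1. With 1 mismatch allowed, miR-15a-5p had 991 total reads instead of 248, and all 743 added reads were those of the listed miR-15b-5p. The ratio of miR-15a-5p, 0.538 in the report, was 0.727 at 26 to 32 nt, 0.732 at 27 to 33 nt, 0.0113 at 24 nt and 0.394 with each distinct sequence counted once. The 27 to 33 nt and 24 nt windows were chosen after seeing the data, and their shares are of the reads of those same lengths. The ratio of miR-20a-5p was 0.225 at 26 to 32 nt, from 2 MARWI-IP reads and 1 total read, and 0.233 over distinct sequences. That of miR-92a-3p was 0.117 over distinct sequences, and 0 both at 24 nt and without sequences read once, since its MARWI-IP signal is 1 read. At 26 to 32 nt miR-92a-3p, and at 27 to 33 nt miR-20a-5p and miR-92a-3p, had no total read and so no ratio. Depth limits these ratios: below 10 MARWI-IP reads the order of miR-20a-5p and miR-92a-3p cannot be read. No paired analysis was possible because each dataset is 1 column, and leaving out a replicate was not possible for the same reason.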
